A study of Mus musculus with 38 samples.

Results

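Vitiligo induction in mice that received ABX was described here from bulk RNA sequencing of tail skin. The comparison was defined by the sample labels and was chosen with earlier results of these data known. It took the 6 libraries labelled as vitiligo induction with ABX (vitiligo_ABX) and the 6 labelled as wild type with ABX (no_induction_ABX), which are 12 of the 38 libraries of the series. Both groups therefore share the ABX exposure, which by the study's design was meant to deplete gut microbes, and they differ by label in the induction. The other libraries are 9 of induced mice without ABX (vitiligo), 9 of wild-type mice without induction or ABX (no_induction), 5 of a hippuric acid group and 3 of a vehicle group. The components and dose of ABX, the method of induction and the strain, sex and age of the mice are not given in the sources used here. No label ties a library to its own mouse, so the p-values measure the spread between libraries, which may be partly technical.

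Vitiligo is a loss of skin pigment in which T cells guided by interferon-gamma and its chemokines destroy melanocytes, the pigment cells of the epidermis and hair follicle. In haired mouse skin, melanocytes feed pigment to the hair shaft only while a follicle is in its growth phase. Growing follicles make large amounts of hair keratins, keratin-associated proteins rich in cysteine, and the inner root sheath that moulds the shaft. Bulk skin RNA thus carries the hair cycle, the immune cells and the epidermis in one measurement.

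The 12 libraries held 16418081 to 19849175 deposited counts each, and all levels below are CPM, counts scaled to a fixed library total, on library sizes scaled by TMM (trimmed mean of M values). Markers of skin were high in every library. Krt10, a keratin of the upper epidermis, was at 4439 to 7300.0 CPM (median 4799) in vitiligo_ABX, against 3874 to 9052 CPM (median 7835) in no_induction_ABX. Col1a1, the main collagen of dermis, was at 1041 to 2539 CPM (median 1883) in vitiligo_ABX, against 1021 to 2054 CPM (median 1492) in no_induction_ABX. The pancreatic markers Prss2 and Cela2a were at 0 in all 12, and the skeletal muscle markers Acta1 and Ckm were below 1 CPM in all 12. Cd3e, the T cell marker, was below 2 CPM throughout.

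Several libraries stood apart within their groups. On the second principal component, which carried 17.9% of the variance, vitiligo_ABX 3 was at -41.8 and no_induction_ABX 6 at -33.9, and the other 10 libraries lay between -5.17 and 16.7. Component 3, with 15.3% of the variance, put vitiligo_ABX 1, 2 and 3 at 7.80 to 22.2 and vitiligo_ABX 4, 5 and 6 at -31.9 to -18.0. Hoxb13, a homeobox gene that marks the tail end of the body axis, followed that split within vitiligo_ABX. It was at 14.6 to 20.1 CPM in vitiligo_ABX 1 to 3 and 29.4 to 36.1 CPM in vitiligo_ABX 4 to 6, against 26.3 to 32.1 CPM in no_induction_ABX. On component 3, no_induction_ABX 1 to 5 were at 5.3 to 12.6 and no_induction_ABX 6 at -17.1, so Hoxb13 did not follow that component across both groups. No_induction_ABX 2 and 4 were high in interferon response genes. The part of these differences in the results below was not tested, and counts are therefore also given without those libraries.

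**Figure D1:**
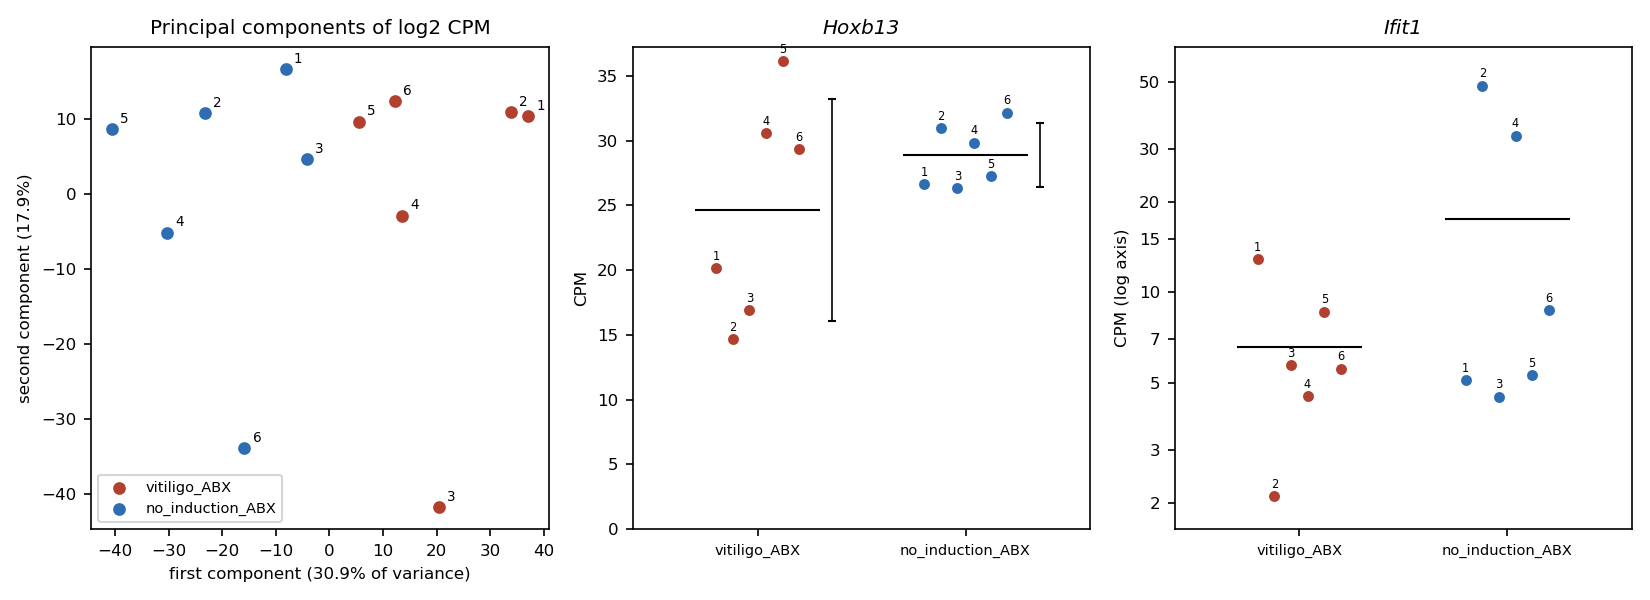
Left, scores of the 12 libraries on principal components 1 and 2 of log2 CPM. Middle and right, CPM of Hoxb13 (linear axis from 0, with mean and SD) and of Ifit1, an interferon response gene (log axis, with mean), 1 numbered point per library, vitiligo_ABX left of no_induction_ABX. The groups separate on component 1 (5.49 to 37.0 in vitiligo_ABX, -40.6 to -4.21 in no_induction_ABX), Hoxb13 is lowest in vitiligo_ABX 1 to 3 (14.6 to 20.1), and Ifit1 is highest in no_induction_ABX 2 and 4 (48.6 and 33.2).

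Skin of mice induced under ABX carried more RNA of hair keratin genes such as Krt82 (log2 fold change 2.38 ± 0.51) and of the cysteine-making enzyme Cth (2.11 ± 0.26) than skin of uninduced mice under ABX. It carried less RNA of the kinase phosphatase Dusp1 (-1.42 ± 0.16) and of the period gene Per3 (-0.41 ± 0.11). Errors of fold changes are standard errors throughout, and a number after a fold change in parentheses is its adjusted p. Of 13876 genes tested with edgeR's quasi-likelihood test, 689 (4.97%) passed an adjusted p of 0.05. Among them 516 genes (3.72%) rose and 173 (1.25%) fell, and of the 179 with a change of at least 2-fold, 161 rose and 18 fell. The median log2 fold change over all genes tested was 0.008. The count of each gene list below stands against these shares, and some genes are in more than 1 list. The count depended on single libraries: it was 228, 290 and 353 without no_induction_ABX 2, 4 or 5, and 359, 375 and 416 without vitiligo_ABX 1, 2 or 4. Without both no_induction_ABX 2 and 4 it was 27, which leaves 4 libraries in that group. It was 452 without vitiligo_ABX 1 to 3 and 1720 without vitiligo_ABX 4 to 6, in which the falls (891) outnumbered the rises (829). Without vitiligo_ABX 3 and no_induction_ABX 6 it was 1052.

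Genes of the hair shaft and inner root sheath, listed with transcription factors of the follicle, were often called. Of 38 tested, 18 passed the test upwards and none downwards, against 3.72% of all genes called higher, and the log2 fold change was positive in all 38 (median 1.57). Of the 18, 8 were keratins, and the other 10 included structural genes such as Dsg4, a desmosomal cadherin of the shaft, and 6 transcription factors. The mean log2 level of the list was 7.66 to 8.71 in vitiligo_ABX and 5.67 to 7.43 in no_induction_ABX, without overlap. Keratin-associated proteins, which crosslink the keratin filaments of the shaft, gave 15 of 39 called higher and a median of 1.58, with list levels of 6.09 to 7.93 in vitiligo_ABX and 5.01 to 6.64 in no_induction_ABX. In bulk skin, more cells of a type and more RNA per cell cannot be told apart, nor can fewer cells and less RNA per cell.

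**Figure D2:**
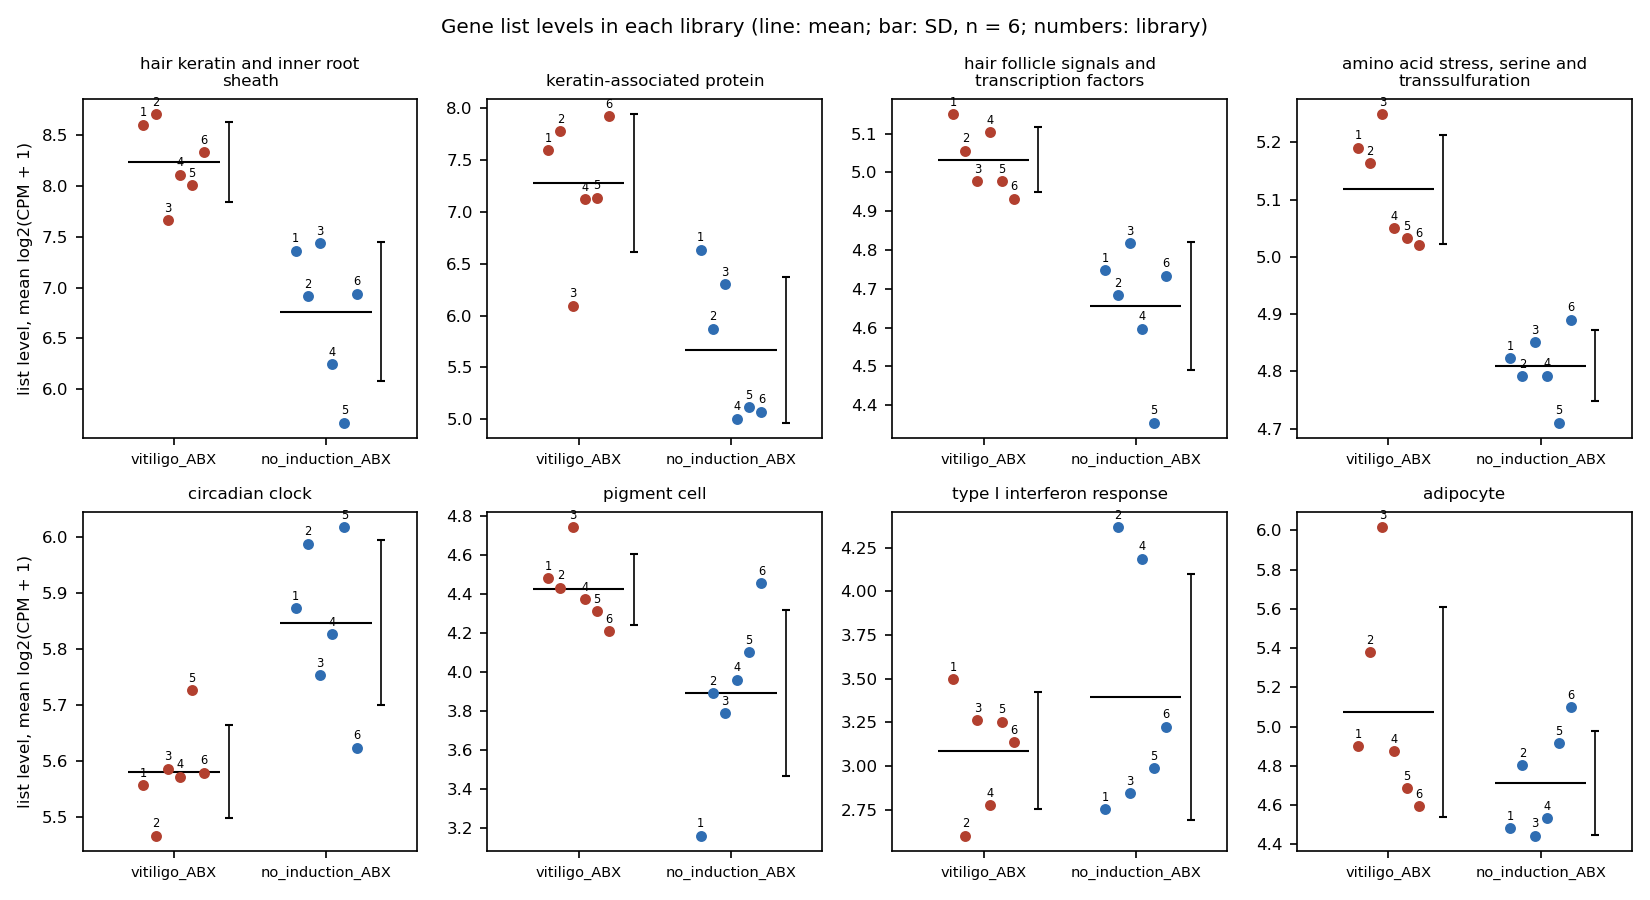
Mean log2(CPM + 1) over the members of selected gene lists in each library, vitiligo_ABX left of no_induction_ABX, 1 numbered point per library, a line at the group mean and a bar for the SD (n = 6). The hair keratin and inner root sheath list does not overlap between the groups (7.66 to 8.71 in vitiligo_ABX, 5.67 to 7.43 in no_induction_ABX), while the type I interferon list is highest in no_induction_ABX 2 and 4 (4.37 and 4.19).

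Krt82, a keratin of the hair cuticle, was at 228 to 476 CPM (median 309.8) in vitiligo_ABX, against 9.26 to 120.0 CPM (median 53.6) in no_induction_ABX. All 6 induced libraries lay above all 6 uninduced ones, and the log2 fold change was 2.38 ± 0.51 (adjusted p = 0.0222, n = 6 libraries each, as in all tests below). Vsig8, a surface protein of the hair follicle, changed by 2.41 ± 0.52 (adjusted p = 0.0222). The largest rise under the naming rule was in Krtap5-3, a keratin-associated protein rich in cysteine, at 18.4 to 63.7 CPM (median 36.7) in vitiligo_ABX, against 0.818 to 9.41 CPM (median 5.25) in no_induction_ABX. Its groups did not overlap either, and its log2 fold change was 2.92 ± 0.51 (adjusted p = 0.0115). Krtap16-1 (2.61 ± 0.54), Krtap29-1 (2.63 ± 0.47) and Krt40 (2.57 ± 0.54), a further hair keratin, were among the 15 largest rises. Members of the Krtap families share sequence, so their single values are uncertain.

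Several inner root sheath genes had fold changes of that order without passing the test. The log2 fold change was 1.62 ± 0.47 for Krt71, a keratin of that sheath (adjusted p = 0.0692), 1.38 ± 0.39 for Krt25, another (0.0618), and 1.67 ± 0.52 for Tchh, trichohyalin, which hardens the sheath (0.0864). These were picked after their values were seen. Vitiligo_ABX 3 was the lowest of its group in each, with 776 CPM of Krt71, and without it the adjusted p was 0.0317 for Krt71, 0.0295 for Krt25 and 0.024 for Tchh. Krt71 and Krt25 also passed without no_induction_ABX 1, at 0.0405 and 0.0444.

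The hair counts rested on few libraries. Leaving out 1 library at a time gave 3 to 20 genes of the hair keratin and root sheath list called higher, with 3 each without vitiligo_ABX 1, vitiligo_ABX 2 or no_induction_ABX 2. The same fits gave 4 to 24 keratin-associated genes, with 4 without no_induction_ABX 2. Without no_induction_ABX 2 and 4 both counts were 0, although all 38 and all 39 members were positive, with medians of 1.35 and 1.40. Without vitiligo_ABX 1 to 3 the counts were 1 and 2. Without vitiligo_ABX 4 to 6 they were 6 and 9, and without vitiligo_ABX 3 and no_induction_ABX 6 they were 24 and 23. Krt82 itself lost its call without vitiligo_ABX 1 or 2 or no_induction_ABX 2 (adjusted p of at most 0.0678), and Vsig8, Krtap16-1 and Krt40 lost theirs without the same 3 libraries, with adjusted p of at most 0.0679, 0.0643 and 0.0659. Krtap5-3 and Krtap29-1 kept theirs in each of the 12 fits.

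Transcription factors of the hair follicle were among the genes called. Foxn1, the transcription factor whose loss makes nude mice, was at 94.7 to 166 CPM (median 119) in vitiligo_ABX, against 30.7 to 88.4 CPM (median 53.2) in no_induction_ABX. No value of one group lay within the other, and the log2 fold change was 1.25 ± 0.23 (adjusted p = 0.0108). Elf5, an epithelial transcription factor, was at 59.2 to 110.5 CPM (median 85.8) in vitiligo_ABX, against 15.9 to 40.2 CPM (median 27.3) in no_induction_ABX, a change of 1.56 ± 0.24 (adjusted p = 0.00607). Dlx3 (1.22 ± 0.24) and Hoxc13 (0.91 ± 0.20), which drive hair keratin genes, also passed, with adjusted p of 0.0146 and 0.0211. In a list of 59 hair signals and transcription factors, added after the values were seen, 18 rose and none fell (median 0.31). Of these 18, 6 (Foxn1, Dlx3, Hoxc13, Trps1, Gata3 and Msx2) were also among the 18 of the hair keratin and inner root sheath list and are not a separate count, and the list levels of 4.93 to 5.15 in vitiligo_ABX and 4.35 to 4.82 in no_induction_ABX did not overlap. Between 9 and 18 of them passed when 1 library was left out, with 9 without vitiligo_ABX 1, no_induction_ABX 2 or no_induction_ABX 4. Hoxc13 lost its call without vitiligo_ABX 1 or 2 or no_induction_ABX 2 or 4 (adjusted p of at most 0.0675). Without vitiligo_ABX 1 to 3, Elf5 kept its call (adjusted p = 0.0325). Foxn1, Dlx3 and Hoxc13 were not called in that fit (adjusted p of 0.0858, 0.122 and 0.167).

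Signalling genes of the follicle followed. Wnt3a, a ligand of the hair-forming Wnt pathway, changed by 1.19 ± 0.20 (adjusted p = 0.00758). Of 22 Notch pathway genes 5 rose and none fell, 2 of them (Jag1 and Hes2) already in the list of hair signals, among them the ligand Jag1 (0.48 ± 0.10) and the target repressors Hes1 (0.62 ± 0.10) and Heyl (0.96 ± 0.17). Of 13 connexins, the subunits of gap junctions, 5 rose and 1 fell. Gjb6, a connexin of skin and inner ear, was at 46.8 to 81.0 CPM (median 54.5) in vitiligo_ABX, against 27.0 to 41.9 CPM (median 35.1) in no_induction_ABX, and its groups did not overlap (0.78 ± 0.15, adjusted p = 0.0126). Gjb2 (0.98 ± 0.20) and Gja1 (0.83 ± 0.17) also rose, while Gjc3 changed by -0.81 ± 0.20 (adjusted p = 0.0305), a call lost without vitiligo_ABX 1 or 2 or no_induction_ABX 2, 4 or 5 (adjusted p of at most 0.0795). Psors1c2 (1.59 ± 0.24, adjusted p = 0.00521) and Hephl1, a copper-dependent ferroxidase tied to hair texture (1.18 ± 0.17, adjusted p = 0.00488), kept their calls in all 12 fits. Without vitiligo_ABX 1 to 3, Wnt3a, Hes1, Gjb6, Psors1c2 and Hephl1 were still called. Jag1, Heyl, Gjb2, Gja1 and Gjc3 were not (adjusted p of 0.0801, 0.0592, 0.0818, 0.0781 and 0.139).

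**Figure D3:**
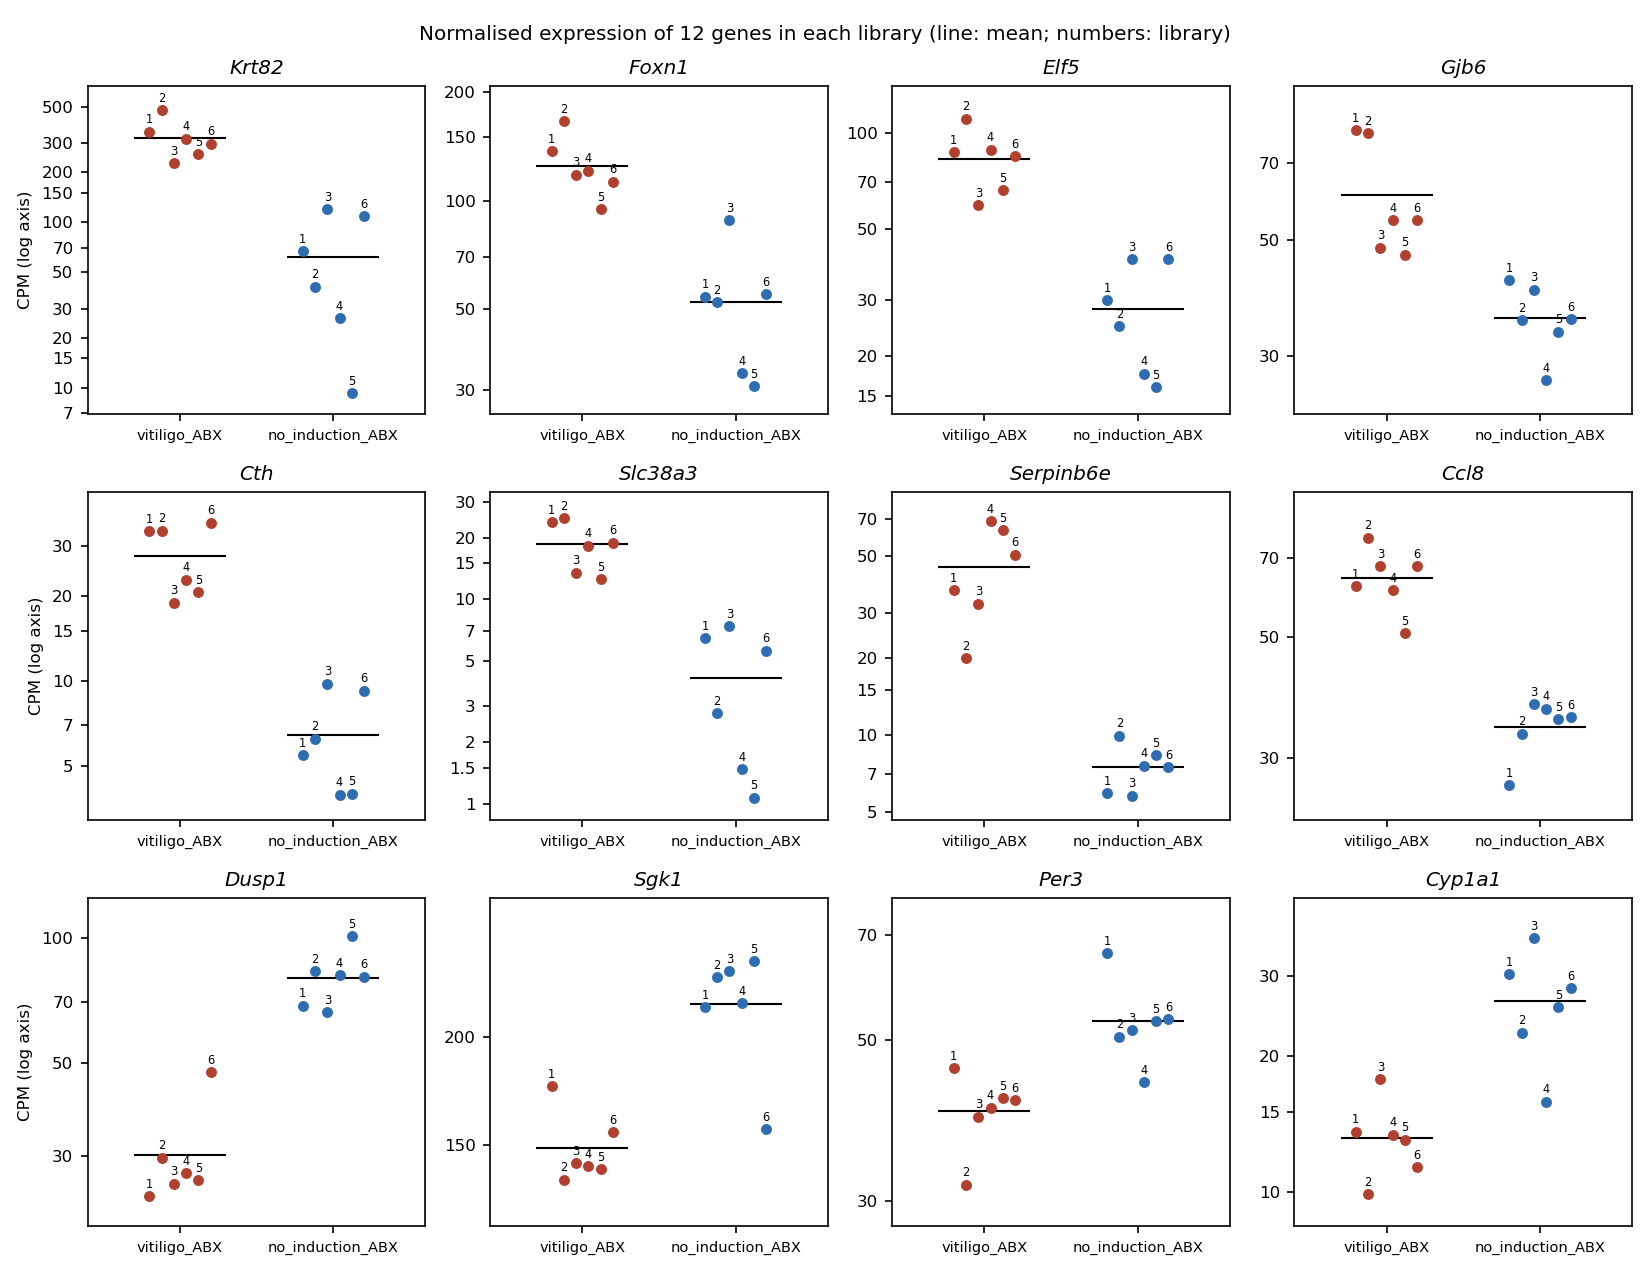
CPM on log axes for 12 genes, 1 numbered point per library, vitiligo_ABX left of no_induction_ABX, with the group mean as a line. The groups do not overlap for Krt82, Foxn1, Elf5, Gjb6, Cth, Slc38a3, Serpinb6e, Ccl8 and Dusp1, and Dusp1 is the lower in vitiligo_ABX (24.0 to 47.6 CPM against 66.3 to 101 CPM).

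Enzymes of cysteine and methionine metabolism rose too. Cth, cystathionine gamma-lyase, which releases cysteine in the transsulfuration pathway, was at 18.9 to 36.3 CPM (median 28.3) in vitiligo_ABX, against 3.96 to 9.77 CPM (median 5.85) in no_induction_ABX. Each induced library was above every uninduced one, and the log2 fold change was 2.11 ± 0.26 (adjusted p = 0.00228). Cbs, the enzyme of the preceding step, changed by 1.00 ± 0.19 (adjusted p = 0.0124), and Gnmt, which spends S-adenosylmethionine on glycine, by 1.98 ± 0.37 (adjusted p = 0.0124). Mat2a, which makes S-adenosylmethionine, changed by 0.61 ± 0.13 (adjusted p = 0.0153), a call lost without no_induction_ABX 2 (adjusted p = 0.0573). Without vitiligo_ABX 1 to 3, Cth kept its call (adjusted p = 0.0104). Cbs, Gnmt and Mat2a lost theirs in that fit, with adjusted p of 0.109, 0.0873 and 0.107. Among 34 genes of amino acid stress, serine synthesis and transsulfuration, 8 rose and 1 fell (median 0.11). Their list levels were 5.02 to 5.25 in vitiligo_ABX and 4.71 to 4.89 in no_induction_ABX, and leaving out 1 library gave 4 to 9 rises, with 4 without no_induction_ABX 2. This list, the connexin and Notch lists above and the transporter, tRNA synthetase and eIF2 lists below were added after the values were seen.

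Chac1, an enzyme that breaks down glutathione and a target of the amino acid stress factor ATF4, was at 12.9 to 90.9 CPM (median 57.6) in vitiligo_ABX, against 5.34 to 20.6 CPM (median 9.77) in no_induction_ABX. Vitiligo_ABX 3, at 12.9 CPM, lay within the uninduced range, and the log2 fold change was 2.30 ± 0.47 (adjusted p = 0.0179; 0.0526 without no_induction_ABX 2). It was singled out after its values were seen. Its upstream sequence is shown because it holds letters known as a binding element of that factor. The 250 bases before the RefSeq start (GRCm38.p6, chr2:119350992-119351241, plus strand) hold 1 match, on the reverse strand, to TGATGNAAN, the composite C/EBP and ATF element, in capitals.
Chac1: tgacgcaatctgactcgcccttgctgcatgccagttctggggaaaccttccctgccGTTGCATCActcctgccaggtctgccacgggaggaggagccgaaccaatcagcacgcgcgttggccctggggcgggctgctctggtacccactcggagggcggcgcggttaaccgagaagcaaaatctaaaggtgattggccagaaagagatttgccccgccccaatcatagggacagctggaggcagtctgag
The motif was in 2.08% of the 250-base windows of 10954 tested genes with a RefSeq start, in 3.22% of the 404 of genes called higher and in 1.45% of the 138 of genes called lower. It was searched on both strands and chosen after values were seen.

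Amino acid carriers and tRNA charging enzymes were higher in part. Slc38a3, a glutamine and histidine carrier, was at 12.6 to 24.9 CPM (median 18.6) in vitiligo_ABX, against 1.07 to 7.40 CPM (median 4.20) in no_induction_ABX. The groups were fully separate, with a log2 fold change of 2.18 ± 0.41 (adjusted p = 0.0123). Slc1a3, a glutamate carrier, changed by 1.3 ± 0.18 (adjusted p = 0.00477). Without vitiligo_ABX 1 to 3, Slc1a3 was still called (adjusted p = 0.0199) and Slc38a3 was not (0.0723). In all, 5 of 28 amino acid transporters rose and none fell, and their list levels did not overlap, at 4.71 to 4.88 in vitiligo_ABX and 4.47 to 4.67 in no_induction_ABX. Between 2 and 5 of them passed when 1 library was left out, with 2 without no_induction_ABX 2.

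Of 20 cytosolic aminoacyl-tRNA synthetases, 6 rose and none fell (median 0.23), led by Cars, which charges the cysteine tRNA (0.84 ± 0.15, adjusted p = 0.0108). Without any single one of vitiligo_ABX 2 or 4 or no_induction_ABX 1, 2, 4 or 5, only 1 gene of the list, Cars, was called. Of 8 subunits of eIF2, which brings the initiator tRNA to the ribosome, and of eIF2B, which recycles eIF2, 5 rose and none fell (median 0.43). Eif2b5 (0.96 ± 0.16, adjusted p = 0.00809) and Eif2b4 (0.86 ± 0.17, adjusted p = 0.0123) kept the call in all 12 fits that left out 1 library, and the lowest count of the list was 2. Cars, Eif2b5 and Eif2b4 were not called without vitiligo_ABX 1 to 3 (adjusted p of 0.0868, 0.0625 and 0.098). They were also not called without no_induction_ABX 2 and 4 (0.119, 0.0996 and 0.124). Cytosolic ribosomal proteins gave 0 called of 61 (median -0.06).

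The fall with the smallest p was in Dusp1, a phosphatase that switches off p38 and JNK kinases and is induced by glucocorticoids and stress. It was at 24.0 to 47.6 CPM (median 26.7) in vitiligo_ABX, against 66.3 to 101 CPM (median 81.0) in no_induction_ABX. Even the highest induced library, vitiligo_ABX 6 at 47.6 CPM, lay below the lowest uninduced one, and the log2 fold change was -1.42 ± 0.16 (adjusted p = 0.0013). Depp1, a target of FOXO factors, was at 2.41 to 13.4 CPM (median 5.59) in vitiligo_ABX, against 12.2 to 40.5 CPM (median 29.7) in no_induction_ABX. Vitiligo_ABX 6 overlapped the uninduced group, and the log2 fold change was -2.07 ± 0.38 (adjusted p = 0.0123). Sgk1, a kinase induced by glucocorticoids and mineralocorticoids, was at 137 to 175 CPM (median 142) in vitiligo_ABX, against 156 to 246 CPM (median 227) in no_induction_ABX. Only no_induction_ABX 6, at 156 CPM, lay within the induced range (-0.56 ± 0.11, adjusted p = 0.0123).

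Of 19 glucocorticoid-responsive genes, 2 fell and none rose, against 1.25% of all genes called lower, and the median was -0.31. The list level was 5.24 to 5.60 in vitiligo_ABX and 5.29 to 6.14 in no_induction_ABX. The falls were in Dusp1 and Sgk1. Tsc22d3, a classical target of the glucocorticoid receptor, had a log2 fold change of -0.85 ± 0.27 and did not pass (adjusted p = 0.0931). Nr3c1, the receptor itself, was at 115 to 203 CPM (median 164) in vitiligo_ABX, against 203 to 264 CPM (median 234) in no_induction_ABX. Vitiligo_ABX 1 to 3 were its 3 lowest libraries, at 115 to 135 CPM, and its call (log2 fold change -0.54 ± 0.15, adjusted p = 0.0463) was lost without vitiligo_ABX 1, 2 or 3 or no_induction_ABX 1, 2, 4 or 5 (adjusted p of at most 0.0933). Tsc22d3 and Nr3c1 were picked after their values were seen. Of 28 genes of the immediate early and heat shock list, 3 passed upwards and 1 downwards. Klf2, a factor of vessels and resting lymphocytes, changed by -0.75 ± 0.18 (adjusted p = 0.0269) and Hsph1, a chaperone, by 0.63 ± 0.11 (adjusted p = 0.0096). Klf2 lost its call without vitiligo_ABX 1 or 2 or no_induction_ABX 2, 4 or 5 (adjusted p of at most 0.0702). Fos, the early gene of AP-1, was at 11.8 to 35.2 CPM (median 13.7) in vitiligo_ABX, against 18.8 to 115 CPM (median 33.9) in no_induction_ABX and did not pass (-1.42 ± 0.43, adjusted p = 0.0799). No_induction_ABX 6 held the 115 CPM, and Fos passed without vitiligo_ABX 6, at 0.0455. Fos too was picked after its values were seen.

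Gadd45b, a growth arrest and stress gene, went the other way, with a log2 fold change of 0.83 ± 0.11 (adjusted p = 0.00475). Dusp1 and Gadd45b kept their calls without no_induction_ABX 2 and 4, at adjusted p of 0.0169 and 0.0492. Beside them in that smaller fit, Serpinb6e, Scd3, Cth, Slc1a3, Hephl1, Ccl8, Cyp1a1, Insig1, Esrrg and Idi2 were still called.

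Genes of the circadian clock were lower in part. Of 18 tested, 4 fell and none rose, against 1.25% of all genes called lower, and 14 were negative (median -0.34). The list level was 5.47 to 5.73 in vitiligo_ABX and 5.62 to 6.02 in no_induction_ABX, which overlapped. Per3, a period gene, was at 31.6 to 45.8 CPM (median 40.9) in vitiligo_ABX, against 43.8 to 66.0 CPM (median 52.4) in no_induction_ABX. Vitiligo_ABX 1 alone reached into the uninduced range (-0.41 ± 0.11, adjusted p = 0.0375). Hlf, an output factor that binds D-boxes, changed by -0.43 ± 0.10 (adjusted p = 0.0258), and Clock, a core activator, by -0.53 ± 0.13 (0.0321). Ciart, a repressor of the core loop, was at 9.15 to 15.7 CPM (median 9.57) in vitiligo_ABX, against 10.9 to 21.4 CPM (median 16.7) in no_induction_ABX. Its groups overlapped through vitiligo_ABX 3 and no_induction_ABX 6, and it passed narrowly (-0.61 ± 0.17, adjusted p = 0.0482). It was singled out after its values were seen.

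These calls were fragile. Leaving out 1 library gave 0 to 5 clock genes called lower, with 0 without no_induction_ABX 2 or 5, and also 0 without no_induction_ABX 2 and 4 together. Without vitiligo_ABX 1 to 3 the count was 1. Ciart lost its call without vitiligo_ABX 1, 2, 4, 5 or 6 or no_induction_ABX 1, 2, 3, 4 or 5 (adjusted p of at most 0.12) and Per3 without vitiligo_ABX 2 or 4 or no_induction_ABX 1, 2 or 5 (adjusted p of at most 0.0668). Hlf lost it without no_induction_ABX 2, 4 or 5 (adjusted p of at most 0.0678) and Clock without no_induction_ABX 2, 4 or 5 (adjusted p of at most 0.0832). Times of day at collection are not given in the sources used here. The windows before Ciart and Per3 are shown because they hold the letters through which clock factors act. In Ciart (RefSeq GRCm38.p6, chr3:95882229-95882478, minus strand) the capitals mark 3 matches to the E-box CACGTG, and in Per3 (chr4:151044666-151044915, minus strand) 2 matches to the D-box TTATGTAA.
Ciart: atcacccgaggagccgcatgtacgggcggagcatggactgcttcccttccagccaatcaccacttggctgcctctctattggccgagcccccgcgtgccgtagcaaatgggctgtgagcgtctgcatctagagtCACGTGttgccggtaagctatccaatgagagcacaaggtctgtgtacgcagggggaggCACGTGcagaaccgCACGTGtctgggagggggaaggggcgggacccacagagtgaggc
Per3: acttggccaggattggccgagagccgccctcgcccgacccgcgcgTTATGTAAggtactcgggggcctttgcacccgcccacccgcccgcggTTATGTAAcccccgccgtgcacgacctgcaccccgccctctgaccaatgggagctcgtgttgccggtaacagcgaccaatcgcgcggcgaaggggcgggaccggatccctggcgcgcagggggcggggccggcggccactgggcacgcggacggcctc
The E-box letters were in 8.19% of all windows, 6.93% of those of genes called higher and 10.1% of those of genes called lower. The D-box letters, searched after values were seen, were in 54 of 10954 windows (0.493%), 2 of 404 (0.495%) and 2 of 138 (1.45%). Per3 is among the last 2. Other planned letters gave, in the same order, 2.67%, 2.72% and 6.52% for the interferon response element and 3.52%, 5.69% and 3.62% for AP-1. The aryl hydrocarbon receptor core gave 44.0%, 40.6% and 53.6%, the MITF site 7.49%, 8.17% and 5.07%, and the STAT site 5.92%, 5.2% and 4.35%. None of these shares was tested. The E-box letters read the same on either strand and the D-box letters do not, and both strands were searched.

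Genes of oxidative stress defence did not move as a group. Of 38 antioxidant enzymes 1 rose and none fell (median -0.02), and of 41 NRF2 target and glutathione genes 4 rose and 2 fell (median -0.04). Txnrd1, thioredoxin reductase, changed by 0.81 ± 0.15 (adjusted p = 0.0108) and Ggt1, which salvages extracellular glutathione, by 1.56 ± 0.33 (0.0187). Aldh3a1, an aldehyde dehydrogenase, changed by -0.63 ± 0.14 (0.0172). Catalase (Cat, -0.04 ± 0.11, adjusted p = 0.86), Sod2 (0.08 ± 0.08, 0.647), Hmox1 (-0.20 ± 0.30, 0.764) and Nqo1 (-0.14 ± 0.10, 0.471) did not pass. Ggt1 lost its call without no_induction_ABX 2 (adjusted p = 0.0526), and in that fit none of the NRF2 targets was called higher. Of 30 producers of reactive oxygen or their partners 2 fell and none rose, among them the lipoxygenase Alox5 (-0.41 ± 0.11, 0.039), while Nos2, inducible nitric oxide synthase, did not pass (-0.00 ± 0.29, 0.997). Alox5 lost its call without vitiligo_ABX 1 or 4 or no_induction_ABX 2, 3, 4 or 5 (adjusted p of at most 0.092). Of 37 genes of p38 signalling 2 rose and 1 fell, the fall being Dusp1, and Mapk14, p38 alpha itself, did not pass (-0.03 ± 0.08, 0.891).

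Cyp1a1, the main target of the aryl hydrocarbon receptor, fell to 9.88 to 17.7 CPM (median 13.2) in vitiligo_ABX, against 15.8 to 36.2 CPM (median 26.9) in no_induction_ABX. Vitiligo_ABX 3 and no_induction_ABX 4 overlapped, and the log2 fold change was -1.0 ± 0.18 (adjusted p = 0.00989). Of 17 peroxisome assembly genes 2 fell and none rose, the import receptor Pex5 (-0.59 ± 0.10) and Pex3 (-0.39 ± 0.08), and that list was added after the values were seen. Genes of oxidative phosphorylation gave 0 called of 74 (median 0.05), and the 13 mitochondrially encoded genes gave 0 called (median -0.05).

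Pigment cell genes were mostly positive, but few passed. Of 19 tested, 16 were positive and 3 negative (median 0.57, lowest -0.20). Only 1 was called, a share near the 3.72% of all genes called higher. The list level was 4.21 to 4.74 in vitiligo_ABX and 3.16 to 4.45 in no_induction_ABX, which overlapped only through no_induction_ABX 6. The called gene was Ednrb, the endothelin receptor of melanocytes and of vessels, at 55.9 to 108 CPM (median 73.2) in vitiligo_ABX, against 41.9 to 55.6 CPM (median 46.9) in no_induction_ABX. All 6 induced libraries lay above all uninduced ones (0.70 ± 0.16, adjusted p = 0.0221), and the call was lost without no_induction_ABX 2, 4 or 5 (adjusted p of at most 0.0605). Without vitiligo_ABX 1 to 3 the log2 fold change of Ednrb was 0.99 (adjusted p = 0.003). Without vitiligo_ABX 4 to 6 it was 0.31 and Ednrb was not called (0.0706). In the same 2 fits Sox10, a factor of the melanocyte lineage, had log2 fold changes of -0.17 (adjusted p = 0.621) and -0.2 (0.643). Mitf, another such factor, had 0.47 (0.0419) and 0.07 (0.843). Pmel, the protein that builds the fibrils of pigment granules, was at 24.7 to 74.6 CPM (median 38.02) in vitiligo_ABX, against 5.65 to 40.9 CPM (median 22.5) in no_induction_ABX. Only 3 of the induced libraries exceeded all uninduced ones, and it did not pass (0.91 ± 0.39, adjusted p = 0.2). Dct (0.77 ± 0.36, 0.24), Tyrp1 (0.74 ± 0.41, 0.333) and Tyr (0.86 ± 0.39, 0.232), enzymes of melanin synthesis, did not pass either. Mlana, a melanosome protein, had a log2 fold change of 1.40 ± 0.40 (adjusted p = 0.0594) and passed without no_induction_ABX 6, at 0.0169. Without vitiligo_ABX 3 and no_induction_ABX 6, 4 pigment cell genes were called higher, and without no_induction_ABX 2 and 4 none was. The hair keratin list moved in the same direction between the groups, and its part in these values was not tested.

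Immune genes gave few calls. Of 38 type I interferon response genes none passed, 37 were negative and the median was -0.43. Ifit1, an interferon-induced blocker of foreign RNA, was at 2.11 to 12.9 CPM (median 5.66) in vitiligo_ABX, against 4.51 to 48.6 CPM (median 7.04) in no_induction_ABX (-1.41 ± 0.67, adjusted p = 0.255). No_induction_ABX 2 and 4 held the 48.6 and 33.2 CPM, and without both libraries 31 of the 38 genes were positive and the median was 0.19. Of 35 interferon-gamma and antigen presentation genes 1 fell, Tapbp, which loads peptides on class I molecules (-0.35 ± 0.09, adjusted p = 0.0448), a call lost without vitiligo_ABX 1, 2, 4, 5 or 6 or no_induction_ABX 1, 2, 3, 4 or 5 (adjusted p of at most 0.105). Of 21 T cell and cytotoxic lymphocyte genes none passed (median 0.04), and neither of 2 B cell genes did (median 0.33). Cxcl10, the chemokine that draws T cells into vitiligo skin, was at 0.896 to 5.84 CPM (median 1.40) in vitiligo_ABX, against 0.716 to 1.19 CPM (median 0.892) in no_induction_ABX and did not pass (1.18 ± 0.42, adjusted p = 0.12), with vitiligo_ABX 3 at the 5.84 CPM. Cxcl9, its relative, did not pass the filter on low counts and reached 9.19 CPM in vitiligo_ABX 3, against at most 1.08 CPM in the other 11 libraries. Ifng, interferon-gamma, reached at most 0.19 CPM in vitiligo_ABX and had no count in no_induction_ABX.

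The myeloid calls were in the C-type lectin and chemokine genes. Of 24 macrophage and dendritic cell genes 2 rose and none fell (median 0.10). Ccl8, a chemokine of dermal macrophages, was at 50.9 to 76.2 CPM (median 64.8) in vitiligo_ABX, against 26.8 to 37.7 CPM (median 35.6) in no_induction_ABX. The groups were separate, with a log2 fold change of 0.90 ± 0.11 (adjusted p = 0.00137). Cd209a, a lectin of dermal dendritic cells, changed by 0.83 ± 0.22 (adjusted p = 0.0446), a call lost without vitiligo_ABX 1, 2, 4, 5 or 6 or no_induction_ABX 1, 2, 3, 4 or 5 (adjusted p of at most 0.108). Cd209e, of the same gene family and thus open to shared reads, was at 2.33 to 6.08 CPM (median 3.46) in vitiligo_ABX, against 0.44 to 1.53 CPM (median 0.653) in no_induction_ABX, without overlap (2.21 ± 0.33, 0.00488). Cd83, a marker of mature dendritic cells, changed by 0.91 ± 0.17 (adjusted p = 0.0112). Cd209e and Cd83 were picked after their values were seen. Of 14 mast cell genes 2 fell and none rose (median -0.27), the chymase Cma1 (-0.43 ± 0.11, 0.0412) and the factor Gata2 (-0.66 ± 0.16, 0.0321). Cma1 lost its call without vitiligo_ABX 1, 2 or 4 or no_induction_ABX 2, 4 or 5 (adjusted p of at most 0.0838) and Gata2 without vitiligo_ABX 2 or 4 or no_induction_ABX 2, 4 or 5 (adjusted p of at most 0.0656). Of 7 neutrophil genes none passed (median 0.99). S100a8, a calprotectin subunit of neutrophils and stressed keratinocytes, reached 106 and 48.4 CPM in vitiligo_ABX 1 and 2 and 2.76 to 11.7 CPM in vitiligo_ABX 3 to 6, against 2.42 to 11.4 CPM in no_induction_ABX (2.42 ± 0.87, adjusted p = 0.136).

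Lipid genes moved singly. Scd3, a fatty acid desaturase of the sebaceous gland, was at 54.9 to 264 CPM (median 209) in vitiligo_ABX, against 20.7 to 64.0 CPM (median 21.3) in no_induction_ABX. Vitiligo_ABX 2, at 54.9 CPM, lay below no_induction_ABX 4, at 64.0 CPM, and the other libraries were separate (2.69 ± 0.42, adjusted p = 0.00793). The other sebaceous calls went down, so that 1 of 19 rose and 3 fell (median -0.12). They included Plin2 (-0.58 ± 0.14, 0.0271) and Cidea (-0.57 ± 0.13, 0.0258), which coat lipid droplets. Plin2 lost its call without vitiligo_ABX 2 or 4 or no_induction_ABX 2, 4 or 5 (adjusted p of at most 0.0693) and Cidea without vitiligo_ABX 1 or 4 or no_induction_ABX 2, 4 or 5 (adjusted p of at most 0.0624). Of 23 cholesterol synthesis genes 1 rose and 1 fell (median -0.06), namely Insig1, a brake on that pathway (0.49 ± 0.08, 0.00758), and Msmo1, one of its enzymes (-0.42 ± 0.11, 0.0401), which lost its call without vitiligo_ABX 1, 2, 4 or 6 or no_induction_ABX 2, 4 or 5 (adjusted p of at most 0.0858). Of 26 adipocyte genes 1, Cidea, fell and none rose (median 0.25), with list levels of 4.60 to 6.02 in vitiligo_ABX and 4.44 to 5.10 in no_induction_ABX. Retn, the adipocyte hormone resistin, reached 29.7 CPM in vitiligo_ABX 3 and did not pass (2.04 ± 0.71, 0.125).

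Of 43 epidermal barrier genes 2 rose and none fell (median -0.07), a share near the 3.72% of all genes called higher, and both, Gjb6 and Gjb2, are connexins counted above. Leaving out 1 library gave 0 to 2 falls in that list, with medians of -0.22 to 0.04. The epidermal genes Krt2 (-1.02, adjusted p = 0.028) and Krtdap (-0.82, 0.0221) were called lower without vitiligo_ABX 1 to 3. Neither was called without vitiligo_ABX 4 to 6 (-0.37, 0.258 and -0.24, 0.32). Of 20 basal keratinocyte genes none passed (median -0.06), and of 42 collagen and dermal matrix genes 1 rose, Col15a1, a basement membrane collagen (0.54 ± 0.11, adjusted p = 0.0153; median 0.03). Of 23 stress keratin and antimicrobial genes 1 rose, S100a7a (1.57 ± 0.38, 0.0348; median 0.25), a call lost without vitiligo_ABX 1, 2 or 6 or no_induction_ABX 2, 4, 5 or 6 (adjusted p of at most 0.0831). Krt6b, a keratin of wounded epidermis and of the follicle, was at 550 CPM in vitiligo_ABX 1 and 4.49 to 50.1 CPM in the other 11 libraries (2.45 ± 1.08, 0.223). No gene passed among 37 of the cell cycle (median 0.20, 36 positive), 22 of endothelium (0.18), 11 of bone, cartilage and tendon (0.29), 9 of skeletal muscle (-0.16), 7 of red blood cells (0.66), 5 of the gut (-0.35) or 16 of the acute phase and complement (0.06). Of 18 Schwann cell genes 1 fell and 17 were negative (median -0.18), and of 16 posterior Hox genes 2 rose, Hoxc13 described above among them, and 1, Hoxa9, fell (-0.43 ± 0.08, 0.0123; median 0.11).

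Outside these lists, Serpinb6e, a member of a family of serine protease inhibitors with close copies, was at 19.9 to 68.4 CPM (median 43.8) in vitiligo_ABX, against 5.78 to 9.93 CPM (median 7.54) in no_induction_ABX. Its groups were well separated, with a log2 fold change of 2.59 ± 0.27 (adjusted p = 0.0013). Cacna1i, a low-voltage calcium channel, changed by 2.76 ± 0.49 (adjusted p = 0.0108). Among the 15 largest falls, Esrrg, an orphan nuclear receptor of oxidative tissues, changed by -1.41 ± 0.23 (adjusted p = 0.00758) and Rgn, a calcium-binding lactonase, by -1.18 ± 0.20 (0.00806). Ovgp1 changed by -1.29 ± 0.20 (0.00607), Snhg11 by -1.30 ± 0.26 (0.0131) and Fabp12 by -1.19 ± 0.25 (0.0172), all with calls in each of the 12 fits. Idi2, an isoprenoid isomerase with a close copy, had the largest log2 fall, -2.12 ± 0.49 (adjusted p = 0.0242; 0.0506 without vitiligo_ABX 2). Of 117 called genes followed singly across those fits, 57 kept the call in all 12, 8 lost it in 1 and 52 lost it in more than 1, mostly without no_induction_ABX 2. More of the 117 lost the call when several libraries were left out. These were 69 without vitiligo_ABX 1 to 3 and 105 without no_induction_ABX 2 and 4, against 31 without vitiligo_ABX 4 to 6.

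**Figure D4:**
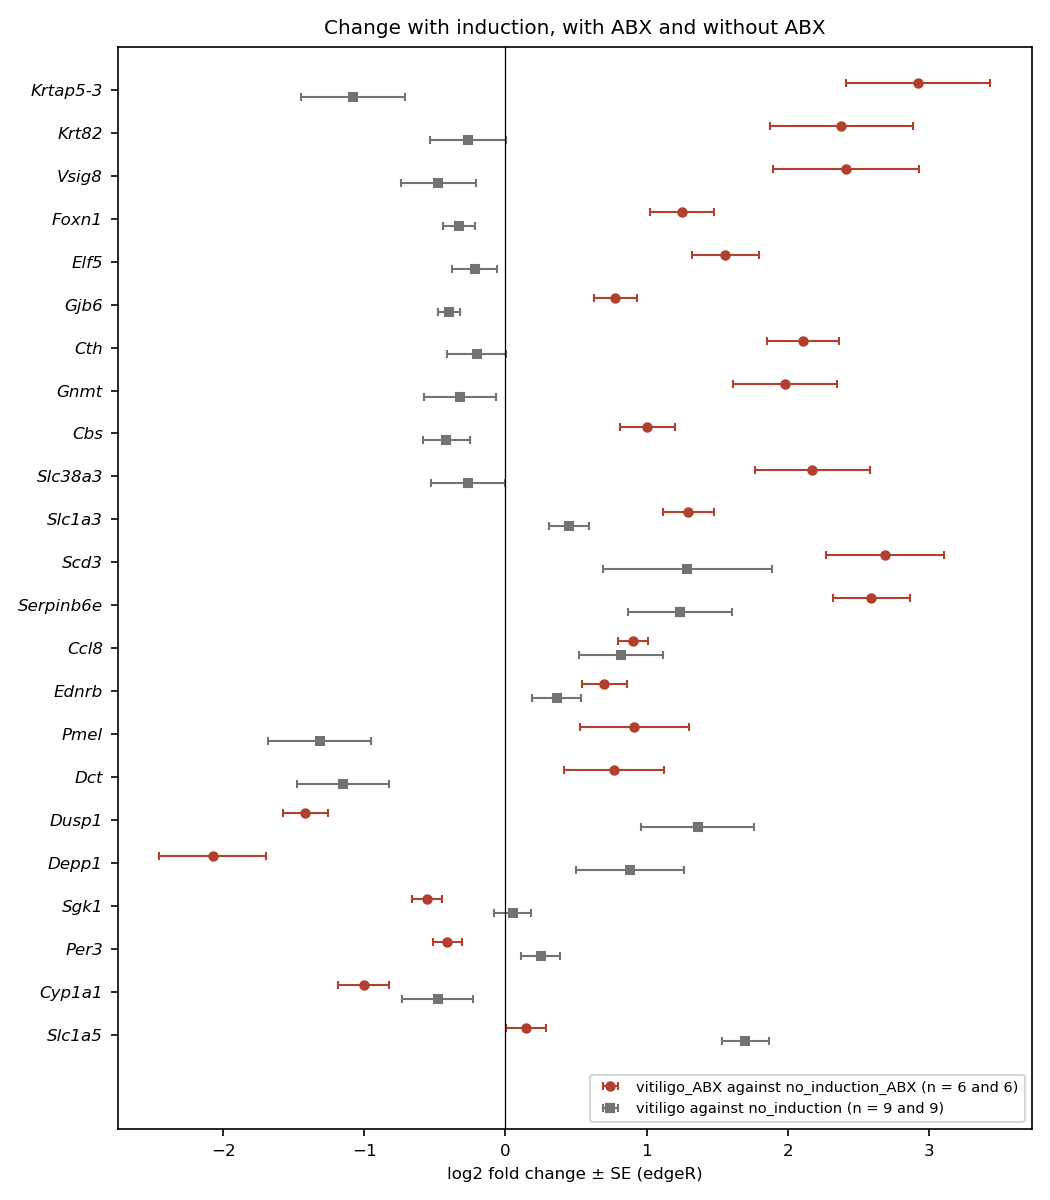
Log2 fold changes with standard errors for 23 genes, for vitiligo_ABX over no_induction_ABX (red circles, n = 6 each) and for vitiligo over no_induction (grey squares, n = 9 each). Hair, cysteine and stress-induced genes take different values in the 2 comparisons, such as 2.11 ± 0.26 with ABX and -0.20 without it for Cth, while Serpinb6e is positive in both.

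Whether the response to induction differed under ABX was tested as the interaction, the log2 change of vitiligo_ABX over no_induction_ABX minus that of vitiligo over no_induction, in a fit of 30 libraries. Of 14310 genes, 1639 (11.5%) passed, 956 (6.68%) with a higher and 683 (4.77%) with a lower change under ABX. Without vitiligo_ABX 1 to 3 the count was 625, and 6 of the 33 genes followed singly for the interaction lost their call. The interactions named below are not given for that fit. Without ABX, 1070 of 13826 genes (7.74%) passed between vitiligo and no_induction, 728 upwards (5.27%) and 342 downwards (2.47%). These 18 libraries are not among the 12 above. Of the 516 genes that rose under ABX, 10 also rose without it (1.94% of the 516, 1.37% of the 728) and 18 fell (3.49% of the 516, 5.26% of the 342). Of the 173 that fell under ABX, 2 also fell (1.16% of the 173, 0.585% of the 342) and 4 rose (2.31% of the 173, 0.549% of the 728). Libraries with and without ABX may also differ in cohort or handling, which the labels do not give, so ABX and such differences cannot be told apart.

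Hair genes took part in that difference. Krtap5-3 had an interaction of 4.0 (adjusted p = 0.000501), with -1.08 between vitiligo and no_induction (adjusted p = 0.0727). Krt82 gave 2.64 (0.00252) and Foxn1 1.57 (0.000398), with -0.27 (0.558) and -0.33 (0.0794) without ABX. Gjb6 fell in vitiligo relative to no_induction (-0.40, 0.00296) and its interaction was 1.17 (0.000309). Gdpd5, a phosphodiesterase of choline lipids, gave 1.1 (0.000309).

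The pigment genes Pmel, Dct and Tyrp1 differed as well, although none of these passed under ABX alone. Pmel changed by -1.32 in vitiligo relative to no_induction (adjusted p = 0.0301), and its interaction was 2.22 (0.0117). The interaction was 1.91 for Dct (0.016) and 1.99 for Tyrp1 (0.0224), with -1.15 (0.0348) and -1.26 (0.0341) without ABX. Without ABX, Pmel lost its call without vitiligo_39, vitiligo_47, vitiligo_0 or vitiligo_260 or no_induction_22 or no_induction_23 (adjusted p of at most 0.0623). Dct lost it in 9 of the 18 fits without 1 library (adjusted p of at most 0.0705) and Tyrp1 in 8 of the 18 fits without 1 library (adjusted p of at most 0.0695). The interactions of all 3 kept their calls in each fit that left out 1 library.

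Cysteine and stress genes also differed. Cth had an interaction of 2.30 (0.000398) and a change of -0.20 without ABX (0.565), and Chac1 had 3.16 (0.000472) and -0.87 (0.0408). Dusp1 was higher in vitiligo than in no_induction (1.36, 0.0399), and its interaction was -2.79 (0.00199). Without ABX, Dusp1 lost its call in 10 of the 18 fits without 1 library (adjusted p of at most 0.0875) and Chac1 in 11 of the 18 fits without 1 library (adjusted p of at most 0.0944). Depp1 gave -2.96 (0.0022). Slc1a5, a glutamine carrier, rose only in the comparison without ABX (1.70, 8.56e-06, against 0.15 ± 0.14 and 0.61 under ABX), with an interaction of -1.57 (0.000398). For Serpinb6e, which was higher in both (1.24 without ABX, 0.0439), the interaction of 1.34 did not pass (adjusted p = 0.0977). Its call without ABX was lost in 13 of the 18 fits without 1 library (adjusted p of at most 0.08).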

How the data were processed

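Poly(A)-selected RNA of mouse tail skin was sequenced on a NovaSeq instrument, per the labels' protocols, and the tools listed in the submitters' processing notes, with no order, are StringTie 1.3.1, HISAT2, DESeq2 and Bowtie2 2.2.8. The genome build, the counting tool and its use of strand are not given in the sources used here. The authors deposited estimated counts for each gene, of which 16.2% held a value that is not whole. One incomplete last line and 1 line without a symbol were left out, which leaves 19218 genes, and the rest were rounded to whole counts. Every sample column was matched to its sample, and 3 annotation columns were not used.

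edgeR 4.0.16 in R 4.3.3 fitted the 12 libraries of vitiligo_ABX and no_induction_ABX with TMM scaling, its default filter on low counts and the robust quasi-likelihood F test, with Benjamini-Hochberg adjustment over all genes tested and calls under 0.05. Standard errors were derived from the F statistic. The interaction was fitted to 30 libraries and vitiligo against no_induction to 18. List levels are means of log2(CPM + 1). Alternatives were DESeq2 1.42.0 and its size factors (RLE), limma 3.58.1 voom with quality weights, other filters, all 38 libraries, a replicate block and left-out libraries. On simulated counts for 13818 genes, the test recovered 50% of 50 genes changed 1.5-fold, 94% at 2-fold, 98% at 4-fold and 100% at 8-fold, and 6.08% of 181 calls were false. The simulation drew each gene independently and changed only genes with a mean of at least 1 CPM. It held no differences between libraries that many genes share, so its rates need not hold for these libraries.

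Genes were named by rule: the 15 largest rises and the 15 largest falls among called genes with a mean of at least 1 CPM and an established symbol, up to 4 members of each list by smallest p, a set of genes of the study's question, and 5 interaction genes in each direction. The comparison, its lists and the genes were chosen with earlier results of these data known, and 8 of the 45 lists were added after the values were seen. Promoter windows came from RefSeq (GRCm38.p6), which need not be the build of the deposited table. No 2 replicates were alike within sampling noise (chi-square per degree of freedom of at least 14.6). One gene is not reported here and was left out of the lists.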

Additional observations from a re-analysis of the deposited data

Results flagged for a closer look

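Single libraries lay far from the other 5 of their group in 26 of 441 groups of values checked, and chance marks about 1 in 20. Vitiligo_ABX 3 accounted for 7 of them. It was the highest of its group in Cxcl9 (9.19 CPM, others at most 1.08), Cxcl10 (5.84, others at most 1.57), Retn (29.7, others at most 11.7) and Oca2, a pigment transporter (6.43, others at most 2.48). It was also the highest in Slc1a5 (65.7, others at most 46.2), Nqo1 (17.1, others at most 15.7) and Ciart (15.7, others at most 11.2).

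No_induction_ABX 6 accounted for another 7. It was high in Fos (115 CPM, others at most 44.2) and Oca2 (3.85, others at most 1.53), and low in Krt10 (3874, others at least 7271) and Sgk1 (156, others at least 217). Its mean log2 levels were 7.03 for epidermal barrier genes (others at least 7.73), 7.55 for basal keratinocyte genes (others at least 7.90) and 5.0 for Notch genes (others at most 4.85).

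The remaining values were spread over 7 libraries. Vitiligo_ABX 1 was high in Krt6b (550.0 CPM, others at most 50.1) and low in Gata2 (16.9, others at least 25.3) and Cd3e (0.702, others at least 0.846). Vitiligo_ABX 5 was high in Itgax, an integrin of dendritic cells (14.7, others at most 9.26), and Per2, a period gene (40.3, others at most 24.9). Vitiligo_ABX 6 was high in Dusp1 (47.6, others at most 29.6) and Fos (35.2, others at most 16.9). No_induction_ABX 4 was high in Scd3 (64, others at most 28.2) and Cxcl9 (0.989, others at most 0.347). No_induction_ABX 2 was high in Tapbp (186, others at most 157), no_induction_ABX 3 in Krtap5-1 (3.99, others at most 1.93) and no_induction_ABX 5 in Cma1 (308, others at most 254).

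The response to induction differed between mice with and without ABX, by the interaction test, for 29 of the 33 genes followed singly for it. These genes include the 5 smallest interaction p in each direction, so their count is no test. Over all 14310 genes, 11.5% passed. The differences in log2 fold change, with ABX minus without, were 4.0 for Krtap5-3, 3.26 for Cacna1i, 3.11 for Krtap16-1, 2.89 for Vsig8 and 2.64 for Krt82. Among further hair and epithelial genes they were 1.92 for Psors1c2, 1.77 for Elf5, 1.57 for Foxn1, 1.45 for Hephl1, 1.17 for Gjb6 and 1.1 for Gdpd5. Among amino acid genes they were 3.16 for Chac1, 2.43 for Slc38a3, 2.30 for Cth, 2.30 for Gnmt, 1.42 for Cbs, 0.84 for Slc1a3 and -1.57 for Slc1a5. Pigment genes gave 2.22 for Pmel, 1.99 for Tyrp1 and 1.91 for Dct. Negative differences were found for Depp1 (-2.96), Dusp1 (-2.79), Cd1d1, which presents lipids to T cells (-1.72), Bche, butyrylcholinesterase (-1.58), Itga7, a laminin receptor (-1.23), Tmem120a (-1.12), Per3 (-0.67) and Sgk1 (-0.62). The call of Sgk1 was lost without vitiligo_ABX 2, no_induction_ABX 2 or no_induction_ABX 5. ABX and unlabelled differences between cohorts cannot be told apart in these values.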

How the results depend on the processing

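Of the genes called between vitiligo_ABX and no_induction_ABX (689, with 516 higher and 173 lower), a minimum fold of 2 left 179 (161 and 18). DESeq2 called 1283 (824 and 459), limma-voom 1494 (929 and 565), and the fit of all 38 libraries raised the lower calls to 280. Without vitiligo_ABX 1 to 3 the count was 452 (258 higher). Leaving out 1 library gave 228 to 863 genes, 180 to 573 higher and 48 to 293 lower, with the lowest without no_induction_ABX 2. Settings added after the data were seen gave 1052 genes (403 lower) without vitiligo_ABX 3 and no_induction_ABX 6, 27 (21 and 6) without no_induction_ABX 2 and 4, and 1720 (829 and 891) without vitiligo_ABX 4 to 6. The interaction, with 1639 genes in all, gave 4437 (2131 higher and 2306 lower) by limma-voom and 625 (361 and 264) without vitiligo_ABX 1 to 3. Leaving out 1 library gave 1177 to 2680 interaction genes, 716 to 1474 higher and 448 to 1206 lower, with the highest without vitiligo 1 and the fewest lower without no_induction_ABX 5. RLE size factors and both other filters kept each of these counts over all genes within 1.5 times, and a pseudocount of 0.1 moved no difference between the groups in a list level beyond its spread. The 18 genes of the hair keratin and inner root sheath list and the 15 keratin-associated genes called higher became 28 and 27 by DESeq2, 29 and 27 with all 38 libraries, and 12 and 10 without a filter on low counts. The causes were not tested, apart from the smaller number of libraries that leaving some out entails.

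Genes that did not pass changed sign in some settings. Cat was at 0.00 without vitiligo_ABX 4 to 6, Ifit1 at 0.15 and Hmox1 at 0.04 without no_induction_ABX 2 and 4, and Sod2 at -0.03 and Hoxb13 at 0.13 without vitiligo_ABX 1 to 3. Hmox1 ranged from -0.40 to 0.03 when 1 library was left out, and Nos2 from -0.16 to 0.13. Nos2 was at 0.28 by limma-voom, 0.32 without vitiligo_ABX 1 to 3 and 0.25 without vitiligo_ABX 3 and no_induction_ABX 6. Mapk14 was at 0.00 without no_induction_ABX 2 and 4 and 0.05 without vitiligo_ABX 4 to 6. None of the 117 called genes followed singly between vitiligo_ABX and no_induction_ABX changed sign under the settings tried. The other called genes were not checked for this.

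Whether the replicate numbers pair the libraries is not given in the labels and was not tested. Same-numbered libraries correlated at -0.069 to 0.306 in their deviations from the group means, and 2 of 6 correlated best with their own number. With the number as a replicate block 793 genes were called (559 higher and 234 lower), and the keratin-associated genes called higher numbered 8 instead of 15. At this depth, Ifng and Cxcl9 were left out of the test by the filter on low counts.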
